A study of Mus musculus with 3 samples.

Results

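The ubiquitin-specific protease (Usp) genes were described in chromatin RNA of mouse macrophages. Members were all genes with a symbol made of Usp and a number and with at least 1 protein-coding transcript, leaving out Usp18 and the genes on chromosomes X and Y. The rule gave 43 genes, out of 50 with such a symbol and out of 22028 protein-coding genes in the annotation. It used names and positions only, and no measured value. The members were named by the symbols of the GENCODE M21 annotation on the mouse build mm10.

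The cells were bone-marrow-derived macrophages of the inbred mouse strain C57BL/6J, primary cells grown from bone marrow. All libraries came from 1 condition. The treatment was Lipid A, the membrane anchor of bacterial lipopolysaccharide and ligand of TLR4. It was given at 100 ng/ml for 12 h, left out for 12 h, and given again at 100 ng/ml for 15 min. RNA bound to chromatin was depleted of ribosomal RNA and sequenced in 3 libraries, numbered by the labels as biological replicates 1, 2 and 3. The labels give a single donor identifier and do not say whether the libraries came from separate animals, and differences among them may therefore be technical. Age and sex were not collected. No untreated or once-stimulated cells were analysed here, so no change on stimulation could be measured, and all values describe levels within this condition.

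Ubiquitin is a small protein that cells attach to other proteins to mark them for destruction, to move them, or to build signalling platforms. Ubiquitin-specific proteases are cysteine proteases that cut it off again, and they form the largest family of deubiquitinases. In macrophages, ubiquitin chains on signalling proteins carry the TLR4 signal to NF-κB, and deubiquitinases limit or redirect that signal. Chromatin-bound RNA holds many transcripts still being made or spliced, so it shows transcription and unspliced RNA more than the messenger pool of the cytoplasm.

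The sequence around the start sites of the members was rich in CpG, the dinucleotide that marks the promoters of broadly used genes. RefSeq windows of 300 bases, from 250 before to 50 after the start (GRCm38.p6), were at hand for 33 of the 43 members. They held a median of 31 CpG, from 2 in Usp50 to 63 in Usp7, against 13 over 21263 windows of protein-coding genes. At least 15 CpG stood in 28 of the 33 windows (84.8%), against 46.8% of the protein-coding windows. The motif TATAAA, searched on both strands, was present for Usp19 and Usp40 only (6.06%), against 12.6% of the protein-coding windows. The stretches from 100 bases before to 20 after the start are given for 4 members with CpG in capitals: Usp48 and Usp7 had the highest RNA levels, Usp13 was near 0, and Usp50 had the fewest CpG. They lie at chr4:137594072-137594191 on the plus strand (Usp48), chr16:8738323-8738442 on the minus strand (Usp7), chr3:32817526-32817645 on the plus strand (Usp13) and chr2:126783441-126783560 on the minus strand (Usp50).
Usp48: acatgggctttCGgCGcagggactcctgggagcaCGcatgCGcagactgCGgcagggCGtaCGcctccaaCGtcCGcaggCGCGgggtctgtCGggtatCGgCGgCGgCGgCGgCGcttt
Usp7: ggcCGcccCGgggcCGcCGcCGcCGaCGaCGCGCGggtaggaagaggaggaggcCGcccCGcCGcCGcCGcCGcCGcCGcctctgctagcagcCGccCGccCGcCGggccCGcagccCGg
Usp13: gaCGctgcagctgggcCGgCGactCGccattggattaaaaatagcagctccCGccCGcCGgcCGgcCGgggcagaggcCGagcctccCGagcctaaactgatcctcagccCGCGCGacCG
Usp50: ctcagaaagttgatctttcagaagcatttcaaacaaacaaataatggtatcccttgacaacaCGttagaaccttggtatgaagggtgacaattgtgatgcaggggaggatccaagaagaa

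These 4 stretches held 18, 24, 15 and 1 CpG. The Usp13 stretch was nearly as rich in CpG as that of Usp48, and its whole window held 36 CpG against 37, yet the mean RNA levels were 0.0133 and 139.6 TPM. TPM is the length-scaled share of a library's transcripts. The other members with fewer than 15 CpG were Usp54 (5), Usp10 (8), Usp40 (11) and Usp49 (11). Members with like numbers of CpG thus differed widely in level.

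The 3 libraries held 14609979, 17423948 and 24162551 expected counts, and the members took 45735, 56508 and 72145 of them, or 0.313, 0.324 and 0.299%. Starting RNA differed, at 1 µg, 250 ng and 500 ng in replicates 1, 2 and 3. The share of counts on ribosomal-like genes of chromosome 17 was 11.8, 15.2 and 18.5%. The 8 macrophage markers ranged from 35.4 to 329.6 TPM, whereas of 22 markers of other blood and stromal cells Zbtb46, at 1.58 TPM, alone reached 1 TPM in the alignment-based table. Cd3e, Elane, Mcpt8, Cpa3 and Pdgfra were listed at 0 there, and none of the 22 passed 2.55 TPM in the read-based table.

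Most Usp genes carried RNA on chromatin. In the alignment-based gene table, 38 of 43 had a mean of at least 1 TPM, against 48.4% of protein-coding genes. At least 10 TPM was reached by 27 members, against 26.4% of protein-coding genes, and at least 50 TPM by 9, against 6.77%. The median over all 43 members was 3.96 ± 0.02 on the log2(TPM + 1) scale (SD, n = 3), or 14.9 TPM, whereas the median protein-coding gene stood at 0.78, or 0.737 TPM. The 39 members detected at a mean of at least 10 expected counts were set among 11755 such protein-coding genes in the comparisons between libraries. The median of these 39 members was 4.51 ± 0.27, so the SD of a median depends on the members taken. Levels spanned a wide range within the family, from 139.6 TPM for Usp48 to 0 for Usp43.

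**Figure D1:**
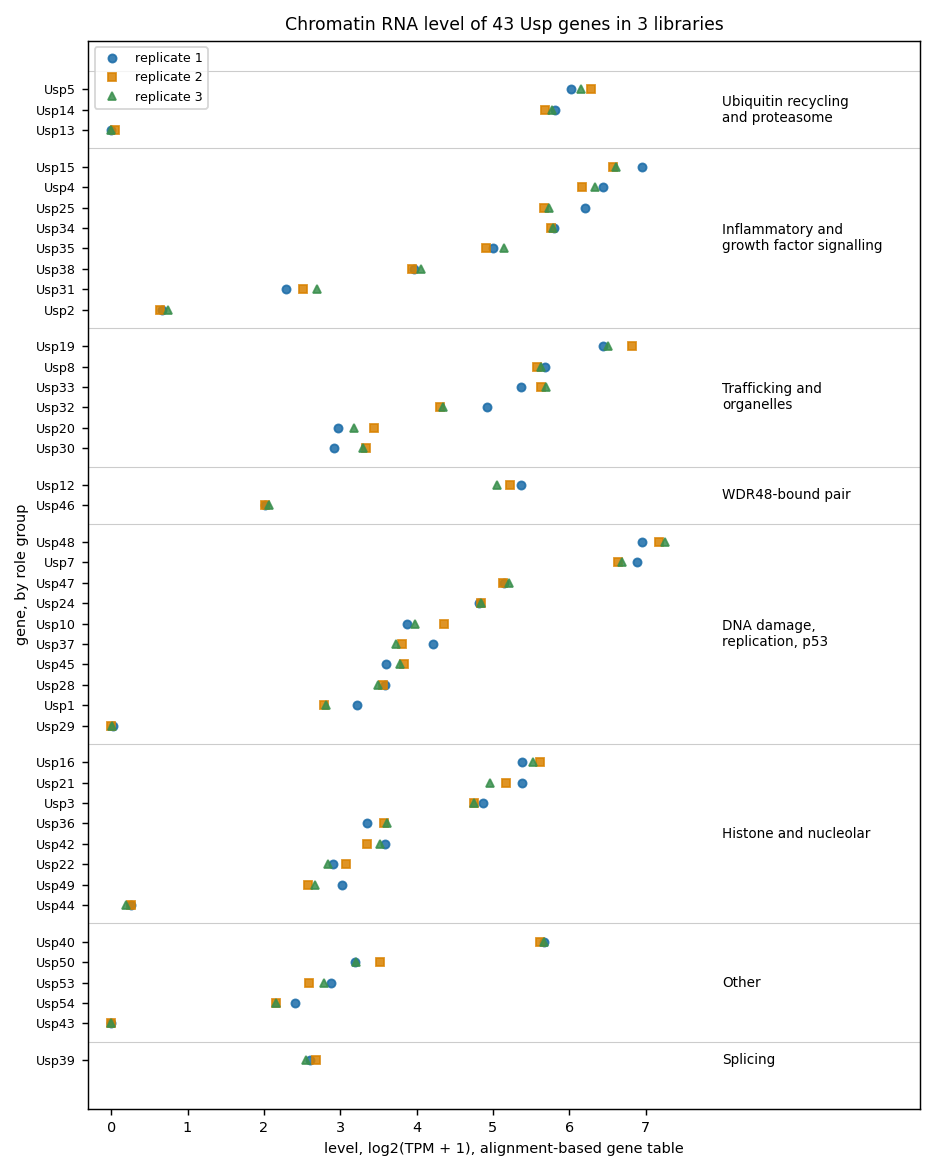
Level of each of the 43 Usp genes, grouped by role, in log2(TPM + 1) on the horizontal axis; circles, squares and triangles are replicates 1, 2 and 3. The 3 points of a gene lie close together compared with the distance between Usp48 (139.6 TPM) and the 5 genes under 1 TPM.

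Genes for the recycling of ubiquitin had the highest median of the role groups, 5.76 ± 0.06 (log2(TPM + 1)), over only 3 genes. Usp5 (ENSMUSG00000038429.10, chromosome 6, 124815019 to 124829484), whose product takes apart free ubiquitin chains, had 64.3, 76.7 and 70.3 TPM in replicates 1, 2 and 3. Usp14, whose product sits on the proteasome and trims ubiquitin from its substrates, had 55.1, 50.5 and 53.5 TPM. Usp13, the close relative of Usp5, was at 0, 0.04 and 0 TPM, from 0, 1 and 0 expected counts. The pair of related genes thus fell at opposite ends of the family: Usp5 was among the 6 highest members and Usp13 among the 4 lowest. In the read-based table, which the authors estimated directly from the reads, Usp13 had 0.139 ± 0.0126 TPM.

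Members known from inflammatory and growth factor signalling had a median of 5.38 ± 0.08. Usp15 (ENSMUSG00000020124.10, chromosome 10, 123105006 to 123196995), which acts on the TGF-β receptor pathway among others, had 123, 94.6 and 96.4 TPM. Its paralog Usp4 had 86.1, 71.0 and 80.0 TPM. Both were highest in replicate 1. Usp25, which removes ubiquitin from the TLR adaptor TRAF3, had 72.6, 50.1 and 52.1 TPM. Usp34, a very large protease linked to Wnt signalling, lay at 54.9, 53.4 and 54.0 TPM, a ratio of 1.03 between its highest and lowest library. Usp35 and Usp38 followed at 31.6 ± 2.76 and 14.9 ± 0.711 TPM, the first a relative of the second. Usp31 (4.71 ± 0.790 TPM) and Usp2 (0.603 ± 0.0586 TPM), a regulator of cyclin D1, were the lowest of the 8.

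The trafficking and organelle group had a median of 5.02 ± 0.11, and all 6 of its members passed 1 TPM. Usp19 (ENSMUSG00000006676.16, chromosome 9, 108490602 to 108502337), which has a form anchored in the endoplasmic reticulum, had 85.6, 112 and 90.2 TPM. Usp8, which acts on endosomes with the ESCRT machinery, had 50.5, 46.7 and 48.5 TPM. Usp33 had 40.2, 48.5 and 50.6 TPM, with replicate 1 lowest. Its paralog Usp20 was lower, at 8.24 ± 1.51 TPM. Usp32, a membrane-bound protease, had 22.5 ± 5.96 TPM and the mitochondrial protease gene Usp30, which opposes Parkin, had 8.17 ± 1.42 TPM.

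Genes tied to DNA damage, replication and p53 held the 2 highest members, and their median was 4.01 ± 0.12. Usp48 (ENSMUSG00000043411.15, chromosome 4, 137593755 to 137658537), which acts on histone H2A and on the NF-κB subunit RelA, had 123, 144 and 152 TPM. Usp7 (ENSMUSG00000022710.17, chromosome 16, 8689595 to 8792308), which stabilises MDM2 and p53, had 117, 98.8 and 103 TPM. Usp48 was highest in replicate 3 and Usp7 in replicate 1. Below them stood Usp47 (34.8 ± 1.00 TPM), a protease for DNA polymerase beta, and Usp24 (27.5 ± 0.277 TPM), the member whose libraries lay closest on the log2 scale among the 39 detected. Usp10, which acts on p53 and binds the stress granule proteins G3BP1 and G3BP2, had 16.0 ± 3.17 TPM. Usp37, which acts on cyclin A, had 14.3 ± 2.87, Usp45, which acts on the repair nuclease subunit ERCC1, 12.4 ± 1.15, and Usp28, which stabilises Myc, 10.7 ± 0.397 TPM. Usp1, the protease for FANCD2 and PCNA, had 6.74 ± 1.33 TPM. Usp29, an imprinted gene of the Peg3 region, had 0.02, 0 and 0.01 TPM, from 1, 0 and 1 expected counts.

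The histone and nucleolar group had a median of 3.50 ± 0.06 over 8 genes. Its highest members, Usp16 (44.6 ± 3.79 TPM), Usp21 (35.2 ± 5.17 TPM) and Usp3 (26.7 ± 1.27 TPM), all encode proteases for histone H2A. Genes for H2B proteases were lower: Usp22, the protease of the SAGA coactivator complex, had 6.68 ± 0.645 TPM, and Usp49 had 5.84 ± 1.15 TPM. Usp44 had 0.20, 0.20 and 0.14 TPM, from 6, 7 and 6 expected counts. Usp42 (10.2 ± 0.927 TPM), which also acts on p53, lay close to Usp36 (10.5 ± 1.07 TPM), whose product works in the nucleolus. The higher level of H2A than H2B protease genes is a description of these named genes, with no test.

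The remaining members fell in small groups. Of the pair that needs WDR48 for activity, Usp12 had 36.3 ± 4.17 TPM and its close paralog Usp46 had 3.11 ± 0.0896 TPM. Usp39, a splicing factor that lacks protease activity, had 5.13 ± 0.278 TPM. Usp40, of little-known function, had 49.8, 48.1 and 49.7 TPM, the highest of the 5 members without a role group. Usp50 (8.95 ± 1.33 TPM), Usp53 (5.75 ± 0.695 TPM), needed for hearing, and Usp54 (3.75 ± 0.471 TPM) were lower. Usp43 was listed at 0 in every library of both tables. Its 0 expected counts allow a share of at most 2.05e-05% of the counts of replicate 1, 1.72e-05% of replicate 2 and 1.24e-05% of replicate 3 (a limit of 3 counts, for counting error only).

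The members varied between libraries about as much as other genes. The median SD of the 39 detected members was 0.14 on the log2(TPM + 1) scale, from 0.01 for Usp24 to 0.35 for Usp32, against 0.16 over all detected protein-coding genes. Replicate 1 was highest for 19 members, replicate 2 for 10 and replicate 3 for 9, and Usp24 tied. Among detected protein-coding genes the shares were 36.3, 29.3 and 33.7%. The lead of replicate 1 depended on the scale. With TMM-scaled counts replicates 1, 2 and 3 were highest for 11, 16 and 12 members, against 29.9, 35.7 and 34.3% of those genes. The numbers were 13, 14 and 12 in the read-based table, against 36.9, 32.9 and 30.0% of those genes. With TPM rescaled without short and ribosomal-like features they were 23, 10 and 6, against 46.9, 29.1 and 24.1%.

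Few members stood at least 1.25-fold apart from both other libraries. Replicate 1 lay above both others for 6 members, Usp15, Usp25, Usp32, Usp37, Usp1 and Usp49, against 10.2% of detected protein-coding genes, and below them for Usp30 alone, against 11.0%. Replicate 2 lay above for Usp10 and Usp50 (6.66% of protein-coding genes) and below for none (10.3%). Replicate 3 stood apart for no member in either direction, against 6.57% above and 4.74% below. As shares of the 39 detected members, replicate 1 came to 15.4% above and 2.56% below, and replicate 2 to 5.13% above, each resting on at most 6 genes.

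**Figure D2:**
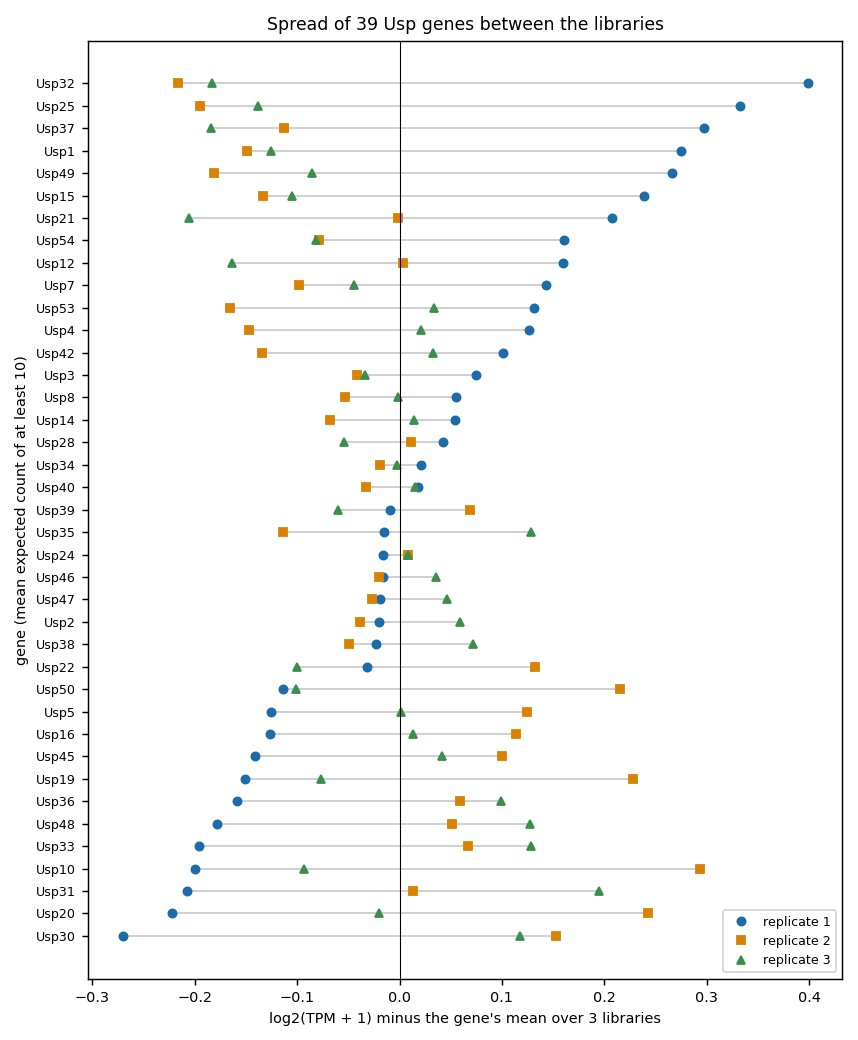
Each point is 1 library of 1 detected Usp gene, as log2(TPM + 1) minus the gene's mean over the 3 libraries, with genes ordered by replicate 1 (circles; squares and triangles are replicates 2 and 3). Usp32 has the widest spread, with an SD of 0.35, and replicate 1 lies to the right for Usp32, Usp25, Usp37, Usp1, Usp49 and Usp15.

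Usp15 and Usp25 stood apart in replicate 1 on each of 4 scales: TPM, TMM-scaled counts, DESeq2-scaled counts and read-based TPM. The share of all detected genes that did so on all 4 was not computed, so these members cannot be called unusual. For Usp25 the TMM-scaled counts were 190, 130.3 and 143 CPM (counts scaled to library size), and the read-based values were 95.7, 71.4 and 70.7 TPM. For Usp15 they were 284, 223 and 223 CPM, and 125, 98.3 and 94.0 TPM. Replicate 1 thus held more RNA of these 2 signalling proteases on all 4 scales. It also had the most starting RNA and the fewest counts, and their part in this was not tested.

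The other 4 members were no longer 1.25-fold above in replicate 1 with TMM-scaled counts, DESeq2-scaled counts or read-based TPM, and for Usp37 and Usp49 replicate 1 was the lowest with TMM-scaled counts. Usp32, with the largest SD, had 29.4, 18.8 and 19.3 TPM, but 84.5, 72.7 and 76.9 TMM-scaled CPM. Most of the gap in TPM lay in Usp32-207, a processed transcript of 372 nt at 8.61 TPM in replicate 1 and 0 in the others. Usp37 had 17.6, 13.0 and 12.3 TPM, but 52.9, 61.8 and 57.6 CPM. Its short transcripts Usp37-206 (361 nt) and Usp37-203 (279 nt) had 4.04 and 2.77 TPM in replicate 1, against 0.60 and 0 in replicate 2, while its main transcript Usp37-201 (7111 nt) had 5.14, 5.64 and 5.61 TPM. Usp1 had 8.28, 5.92 and 6.03 TPM and 15.0, 13.8 and 13.9 CPM, with replicate 1 highest on both scales, and its 546 nt transcript Usp1-203 had 3.23, 1.31 and 1.24 TPM. Usp49 had 7.15, 4.98 and 5.39 TPM and 20.2, 24.8 and 20.8 CPM. Its 544 nt transcript Usp49-203 had 4.16, 1.56 and 2.29 TPM, on a mean of 12.7 expected counts out of 406 for the gene. The part of these short transcripts in the gene values was not tested.

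Among the 6 members of largest SD with at least 100 counts, Usp10 alone was highest in replicate 2, with 13.6, 19.6 and 14.7 TPM, and it had 14.9, 20.0 and 19.5 TMM-scaled CPM. On that scale replicate 1 stood below both others and replicate 2 did not stand above. Usp20, which did not pass on TPM (6.85, 9.84 and 8.03), did so on TMM-scaled counts, at 9.62, 16.8 and 13.4 CPM, with replicate 1 below and replicate 2 above. For Usp24 and Usp34 the libraries lay farther apart with TMM-scaled counts than with alignment-based TPM. In the read-based table Usp34 stayed close, at 66.5, 65.0 and 67.5 TPM, and Usp24 had 28.5, 32.6 and 30.4 TPM. With TMM-scaled counts Usp24 had 169.5, 206 and 191 CPM, and Usp34 had 354, 405 and 376 CPM.

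The deposited transcript tables divide each gene's reads among its annotated transcripts. The 43 members had 325 annotated transcripts, of which 138 were protein-coding, 121 of the retained intron type, 44 processed transcripts and 22 targets of nonsense-mediated decay. A retained intron transcript keeps sequence that is cut out of the coding form. The median length was 761 nt for retained intron transcripts and 3232 nt for protein-coding ones. Of the 121, 27 held at least 1 whole intron between coding exons of their gene, and 48 held only the start of one. The other 46 held neither, among them Usp7-209 (17 TPM), Usp7-201 (13.9 TPM), Usp7-203 (11.1 TPM) and Usp15-208 (21.7 TPM). Only introns whose flanking exons are wholly coding were looked at, and the far ends of introns were not. These 46 may thus hold other intron sequence.

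Retained intron transcripts carried much of the TPM of several abundant members in the alignment-based table, and none of that of Usp48, Usp34 and Usp8. The exon-intron borders of 5 transcripts that hold intron sequence show what such RNAs contain: the last 20 exon bases are in lower case, and the 20 intron bases that follow, absent from the spliced coding form, are in capitals. The borders lie at chr16:8698432-8698471 (Usp7-211, minus strand), chr10:123163573-123163612 (Usp15-205, minus), chr9:108493694-108493733 (Usp19-205, plus), chr6:124823433-124823472 (Usp5-207, minus) and chr16:77093723-77093762 (Usp25-204, plus) on GRCm38.
Usp7-211: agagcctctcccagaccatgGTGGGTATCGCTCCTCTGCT
Usp15-205: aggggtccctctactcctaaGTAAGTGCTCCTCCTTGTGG
Usp19-205: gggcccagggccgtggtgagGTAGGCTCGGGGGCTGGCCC
Usp5-207: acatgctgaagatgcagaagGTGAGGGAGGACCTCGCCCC
Usp25-204: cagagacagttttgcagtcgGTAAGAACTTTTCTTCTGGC

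Each intron began with GT, the usual splice donor. In Usp7-211 (9.37 ± 0.467 TPM) and Usp19-205 (19.6 ± 3.10 TPM) the transcript held the whole of this intron, of 457 and 302 bases. In Usp15-205 (30.7 ± 4.55 TPM), Usp5-207 (27.7 ± 3.19 TPM) and Usp25-204 (19.2 ± 3.97 TPM) it held only the start of an intron of 16654, 733 and 14142 bases. Usp15-205 and Usp5-207 were the transcripts with the highest TPM of their genes.

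The retained intron share was taken as the percent of a gene's transcript TPM in transcripts of that type. Over the 38 members with a mean of at least 1 TPM the median share was 38.2% ± 1.51 (SD, n = 3), and over the 31 of them with such an annotated transcript it was 48.3%. A share of at least 50% was found for 14 of these 31 (45.2%), against 44.5% of 6584 protein-coding genes with such a transcript, so the members were close to the background. The highest share was that of Usp15, with 91.5, 92.6 and 92.3% in replicates 1, 2 and 3. Usp21 had 87.0, 83.8 and 84.3%, Usp14 had 84.6, 85.3 and 82.5%, and Usp7 had 74.5, 71.3 and 70.1%. All 4 stayed within a few percentage points between libraries.

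Counted as reads and not per length, the share was much lower. By expected counts the median over the 31 members was 18.9%, against 30.1% for the 6584 genes. Only 3 of the 31 (9.68%) had at least 50%, Usp21 with 70.3%, Usp15 with 67.7% and Usp16 with 65.9%, against 29.6% of the background. Usp7 had 72.0% of its TPM but 20.5% of its counts in such transcripts, Usp14 had 84.1 and 49.0%, and Usp25 had 36.0 and 5.52%. Usp15, Usp21 and Usp16 were thus the members with at least 50% by both measures in the alignment-based table. By read-based counts 6 of the 31 (19.4%) had at least 50%, against 30.7% of the background. Usp14 (57.1%), Usp36 (56.3%) and Usp37 (52.6%) then joined those 3.

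**Figure D3:**
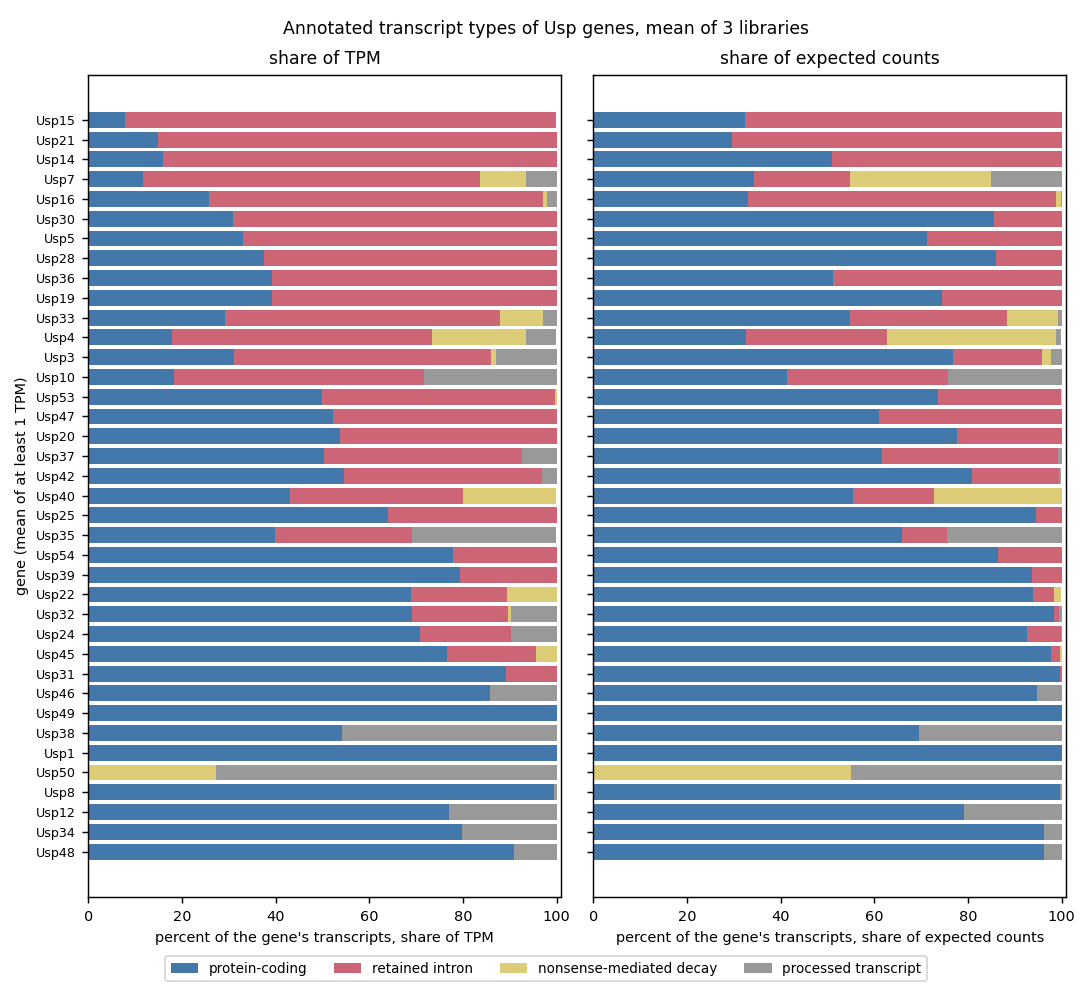
Stacked bars give the percent of each gene's transcript TPM (left) and expected counts (right) by annotated transcript type, as means of 3 libraries, for the 38 Usp genes with at least 1 TPM. Usp15 is at the top with 92.1% of TPM and 67.7% of counts in retained intron transcripts, and Usp50 has no protein-coding share.

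Several abundant members had no annotated retained intron transcript. Usp48 had 91.0% of its TPM in protein-coding transcripts, spread over several: Usp48-202 led with 33.2 ± 0.580 TPM, or 23.8% of the gene. Usp8 was nearly a single transcript, with Usp8-201 at 46.9 ± 0.882 TPM, or 96.6% of the gene. Usp34 had 79.9% and Usp12 77.1% in protein-coding transcripts. For these genes unspliced RNA could not show up under that type, since the annotation has none.

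Nonsense-mediated decay transcripts were prominent in a few members. Usp4 had 20.0% of its TPM and 36.0% of its counts in them, led by Usp4-207 at 15.6 ± 1.69 TPM. Usp40 had 19.8% and 27.3%, and Usp7 had 9.90% and 30.0%. The leading transcript by TPM was protein-coding in 27 of the 38 members, of the retained intron type in 10 and a processed transcript in 1. By expected counts it was protein-coding in 32, and by read-based TPM in 17. The tables named the same leading transcript by TPM for 21 of 38 members. Leading transcripts were not counted over all protein-coding genes, so these numbers cannot be set against a background.

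Usp50 stood out by its transcripts. None of its TPM lay in protein-coding transcripts: Usp50-204, a processed transcript, had 6.14, 7.68 and 5.74 TPM, and Usp50-203, of the nonsense-mediated decay type, had 2.00, 2.80 and 2.48 TPM. The gene (chromosome 2, 126709096 to 126783470, minus strand) overlaps Usp8 (126707328 to 126759297, plus strand) with no shared exon bases, and its exons overlap the pseudogene Gm10774 (3.35 ± 3.15 TPM) on the same strand. Usp8 had a mean of 48.5 TPM, and whether its unspliced RNA entered the Usp50 values was not tested.

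Overlap with other genes limits some of these values. The sources used here do not give whether strand was used, and reads in overlapping exons cannot be told apart. Where genes overlap in introns only, as Usp50 and Usp8 do, unspliced reads may be mixed too, which was not tested. Exons of 17 members overlap a gene on the opposite strand, and in 7 of them that gene is protein-coding with at least 1 TPM. These pairs were Usp34 with Ahsa2 (17.8 TPM), Usp14 with Thoc1 (70.8 TPM), Usp40 with Dgkd (36.9 TPM), Usp16 with Cct8 (34.6 TPM), Usp37 with Cnot9 (9.54 TPM), Usp45 with Tstd3 (1.41 TPM) and Usp49 with Tomm6 (4.60 TPM). Usp49 also shares exon bases with Gm20517 on the same strand, which had 9.59, 5.97 and 7.32 TPM, highest in replicate 1 as Usp49 was. Usp10 shares exon bases with Gm20388 on the same strand, which had 0, 2.72 and 1.10 TPM, highest in replicate 2 as Usp10 was. The part of these overlaps in the members' values was not tested. No gene overlapped 18 of the members, Usp48, Usp19, Usp5 and Usp25 among them.

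The alignment-based and read-based tables ranked the members alike but differed in level. Across the 38 members with at least 1 TPM in both, Spearman's rho was 0.94, for values that share libraries, reads and annotation. The read-based value was higher for 33 of 38, with a median ratio of 1.37 against 1.29 over 10565 protein-coding genes. A ratio of at least 1.5 was found for 14 of 38 (36.8%), against 35.4% of those genes. Counts of members moved with it: 40 had at least 1 TPM, 31 at least 10 and 14 at least 50 in the read-based table. The shares of protein-coding genes rose too, to 59.6, 32.6 and 9.43%, against 48.4, 26.4 and 6.77% by alignment.

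Among these 38 members Usp53 differed most, with 6.37, 5.0 and 5.89 TPM by alignment and 22.0, 27.9 and 27.4 TPM by reads, a ratio of 4.48. A single transcript, Usp53-202, held most of that gap, at 1.17 TPM by alignment and 18.2 by reads. Usp22 (16.2, 18.6 and 16.1 read-based TPM against 6.50, 7.40 and 6.15) had a ratio of 2.54. Usp3 (61.5, 63.9 and 57.2 against 28.2, 25.9 and 26.1) had 2.28, and Usp32 (46.0, 32.0 and 39.2 against 29.4, 18.8 and 19.3) had 1.74. Replicate 1 was highest for Usp32 in both tables.

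Lower read-based values were rarer and smaller. Usp21 had 31.0, 27.3 and 22.8 read-based TPM against 40.5, 34.9 and 30.2, a ratio of 0.767. Usp42 had 10.1, 8.01 and 9.02 against 11.0, 9.22 and 10.5 (0.882). Usp8 had 48.1, 45.6 and 45.3 against 50.5, 46.7 and 48.5 (0.955), and Usp38 had 14.2, 14.4 and 14.9 against 14.6, 14.3 and 15.7 (0.976). For Usp8 and Usp38 the difference was no larger than a few percent.

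**Figure D4:**
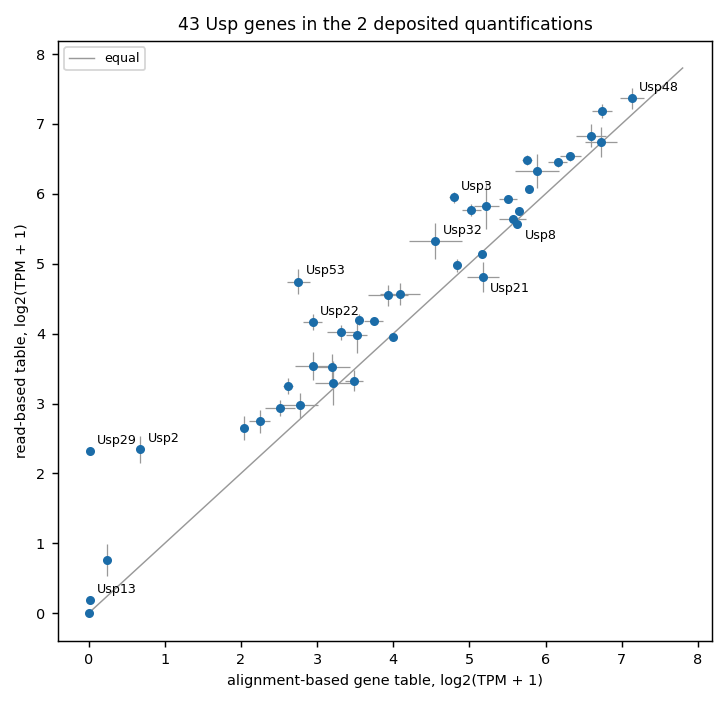
Each point is 1 of the 43 Usp genes, with the mean log2(TPM + 1) of the alignment-based table on the horizontal and of the read-based table on the vertical axis; bars are SDs over 3 libraries and the line marks equal values. Usp53, with a ratio of 4.48, and Usp29 (0.0100 and 3.99 TPM) lie well above the line, and Usp21 lies below it.

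At the low end the tables disagreed on whether a gene was present. Usp29 had 0.0100 TPM by alignment but 4.01, 3.95 and 3.99 TPM by reads, of which Usp29-205, a processed transcript, held 2.11. Usp2 had 0.58, 0.56 and 0.67 TPM by alignment and 4.29, 3.35 and 4.63 by reads. Usp44 had a mean of 0.180 against 0.693 TPM. Usp13 and Usp43 stayed under 1 TPM in both. Which table is closer to the RNA in the cells was not tested.

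Genes listed under other deubiquitinase families had a similar median level. The 33 genes, which include Cyld and Pan2, listed as USP-type without a Usp symbol, had a median of 4.03 ± 0.05 (log2(TPM + 1)). That of the 43 Usp members was 3.96 ± 0.02, and 31 of the 33 had at least 1 TPM. The 33 were listed by family, and whether each product has protease activity was not examined. The Usp family held more of the abundant genes, with 9 of 43 at 50 TPM or more (20.9%) against 3 of 33 (9.09%), which was not tested. The contrast was smaller in the read-based table, at 14 of 43 (32.6%) against 8 of 33 (24.2%). The highest of the 33 were Zup1, a protease for long Lys63-linked chains, with 321, 236 and 233 TPM, the NF-κB inhibitor Tnfaip3 (A20) with 93.9, 50.04 and 64.4 TPM, and the proteasome subunit gene Psmd14 with 58.3, 47.7 and 46.6 TPM. All 3 were highest in replicate 1 by alignment-based TPM, as were 36.3% of detected protein-coding genes. TMM-scaled and DESeq2-scaled counts were not looked at for these 3 genes. Otud7a was the lowest, listed at 0 by alignment but at 56.7 TPM by reads. Cyld, which restrains NF-κB signalling, had 37.2 ± 2.16 TPM.

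Partners of the Usp proteins were present throughout. All 13 cofactor genes had at least 1 TPM, with a median of 4.86 ± 0.09. The highest were G3bp2 (41.9 ± 6.68 TPM), a partner of Usp10, Stam (41.6 ± 1.88 TPM), a partner of Usp8, and Ptpn23 (38.2 ± 0.937 TPM), which works with Usp8 on endosomes. Dmwd was lowest at 1.85 ± 0.505 TPM. Wdr48, which activates Usp1, Usp12 and Usp46, had 32.4 ± 1.8 TPM, between Usp12 (36.3) and Usp46 (3.11). The SAGA subunit genes Atxn7, Atxn7l3 and Eny2 had 33.8, 18.6 and 16.6 TPM, all above Usp22 by alignment.

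**Figure D5:**
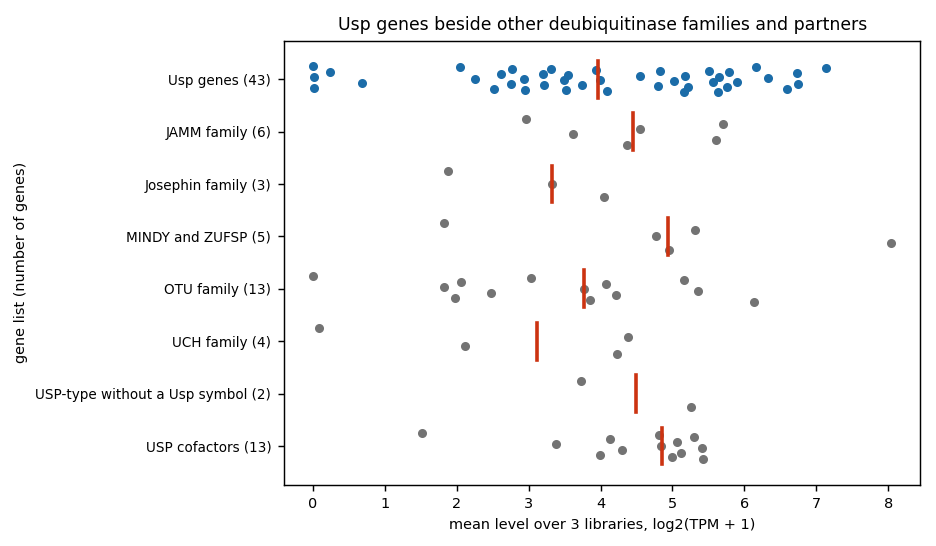
Mean level of each gene over 3 libraries, log2(TPM + 1), for Usp genes (top row) and lists of other deubiquitinase families and partners. Each dot is a gene and the vertical bars are list medians. The Usp median of 3.96 lies within the range of the other families' medians, and Zup1 (263 TPM) is the dot farthest to the right.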

How the data were processed

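Total RNA of the chromatin fraction of macrophages was measured in 3 libraries of 1 group. Per the README files deposited with the tables, reads were mapped to mm10 with GENCODE M21, and the sources used here give no tools, versions or strandedness. The authors deposited an alignment-based gene table and transcript table with expected counts and TPM, and a read-based transcript table with estimated counts and TPM. Total expected counts were 14609979, 17423948 and 24162551 in replicates 1, 2 and 3. Rows naming no gene held 1.24, 0.482 and 0.228% of them and took no part.

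Levels are log2(TPM + 1), a scale that shrinks differences between genes of low TPM. Read-based values were summed per gene. Expected counts were rounded for edgeR 4.0.16 (TMM) and DESeq2 1.42.0 (size factors) under R 4.3.3, as scales only. With 1 group, no gene was tested. Python 3.11.15 with pandas 2.3.3 and matplotlib 3.10.9 did the rest, and the computation of deviations between libraries was checked on simulated counts, which says nothing about the measured ones. Every member is named. Per-library values are given for the 12 highest and 4 lowest members, the 6 of largest SD with at least 100 counts, the 4 of largest ratio between tables each way and the 4 of highest retained intron share at 5 TPM or more. Of the lists of other families and partners, the 3 highest genes and the lowest are named, and others named there were chosen after their values were seen. The members, role groups and lists were chosen with earlier results of these data known. Alternatives covered the table, pseudocount, filters, scale and each replicate left out. Coordinates are 1-based. Promoter sequences are from RefSeq (GRCm38.p6), matched by symbol. A list of further genes is not reported here.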

Additional observations from a re-analysis of the deposited data

How the results depend on the processing

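Scale and table moved levels most. Relative to the alignment-based TPM, TPM rescaled without features under 200 nt and without 3 ribosomal-like genes raised the median detected protein-coding gene by 0.85 and the median member by 0.89 (log2), and the read-based table by 0.33 and 0.44. The members' median of 3.96 became 4.60 in the read-based table, 4.83 with rescaled TPM, 3.87 with a pseudocount of 0.1 and 4.51 ± 0.27 among members of at least 10 counts. Over all members it was 3.95 to 3.97 with each replicate left out. Members of at least 50 TPM numbered 14 in the read-based table and 19 with rescaled TPM, against 9. The share of protein-coding genes was 9.43% in the read-based table, against 6.77%, and was not computed with rescaled TPM.

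Replicate 1 was highest for 11 members with TMM and 12 with DESeq2 scaling, against 19, and replicate 2 for 16 and 17, against 10, which turned the order of these 2 libraries. The order also turned among detected protein-coding genes, with 31.6% highest in replicate 1 and 35.7% in replicate 2 with DESeq2 scaling. Members 1.25-fold above both others in replicate 1 fell from 6 to 2 with TMM, DESeq2 and the read-based table, and those below rose from 1 to 3, 2 and 2. These alternatives for the 1.25-fold counts were chosen after seeing the data, and the matching shares of all detected genes were not computed. In replicate 2 those above went from 2 to 1 with TMM, 1 with DESeq2 and 0 in the read-based table, which also gave 1 below in replicate 2, and 1 above and 1 below in replicate 3, where DESeq2 gave 1 below, against 0 each. The median SD of 0.14 ranged from 0.05 without replicate 1 to 0.17 without replicate 3.

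The median protein-coding share of 50.5% was 40.9% in the read-based table, 76.4% by counts and 46.7% among members of at least 5 TPM, and the retained intron share of 38.2% was 46.4, 14.6 and 42.9%.

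In the read-based table the medians of the role groups were 4.55 (DNA damage), 4.06 (histone), 5.92 (signalling), 4.01 (other), 3.25 (splicing), 5.44 (trafficking), 6.44 (recycling) and 4.22 (WDR48 pair). Those of the other lists were 4.63 (Cyld and Pan2), 3.50 (UCH), 4.73 (OTU), 4.40 (Josephin), 4.84 (JAMM), 5.25 (MINDY and ZUFSP) and 5.26 (cofactors). With a pseudocount of 0.1 they were 3.38 (histone), 2.54 (other), 2.39 (splicing), 3.43 (WDR48 pair), 4.42 (Cyld and Pan2), 2.91 (UCH) and 3.19 (Josephin), and with at least 10 counts 4.15 (UCH).

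Of 185 alternative values on members and lists, 132 stayed within 1 SD or 1.5 times the main count. With 1 replicate left out, a level or share averages the remaining libraries and always stays within 1 SD. The median deviations were set against 0.27, the SD of the detected members' median level, which is wider than any of them. The tally is therefore not a measure of robustness. The members' median deviation from the other libraries, near 0, changed sign: replicate 1 from -0.01 to 0.06 with rescaled TPM and 0.01 with at least 100 counts, and replicate 2 from -0.03 to 0.03 with TMM and in the read-based table and 0.02 with DESeq2. No paired analysis was possible because the series has 1 group.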
